A study of Mus musculus with 12 samples.

Results

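A set of 9 genes of retinoid transport and metabolism were followed in mouse yolk sac: Rbp4, Ttr, Stra6, Crabp1, Crabp2, Rdh10, Aldh1a2, Cyp26a1 and Cyp26b1. They were chosen by symbol, from current and older names, and are 9 of the 27566 genes named on the array and 10 of its 41174 probes, since Rdh10 has 2 probes. Of the 9, 7 were bright enough to test, among 13894 genes tested in all. Crabp1 and Crabp2 were not: their yolk sac signal was not well above background on all 3 arrays of any group.

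Yolk sacs came from mice of CD1 background, either wild type or homozygous for the point mutation V1068G in Arid1a, at embryonic day 8.5 (E8.5) or 9.5 (E9.5), with 3 biological replicates in each of the 4 groups. Arid1a, also called Baf250a, encodes a subunit of SWI/SNF chromatin remodelling complexes, and the title of the series names contact between its ARID domain and DNA as the question. Whether 1 yolk sac or a pool made up a replicate is not stated in the labels, so p-values measure the spread between these samples. Each sample was hybridised in Cy5 against RNA of whole neonatal mice of mixed 129Sv and C57BL/6 background in Cy3, and values below are log2 Cy5/Cy3 unless another scale is named: 0 means the level of the neonatal reference, and levels are not comparable between genes.

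Retinol, the alcohol form of vitamin A, travels in blood bound to Rbp4, which itself rides on transthyretin (Ttr), and Stra6 is a membrane receptor for this carrier. Inside cells Rdh10 oxidises retinol to retinaldehyde and Aldh1a2 turns that into retinoic acid, which Crabp1 and Crabp2 bind in the cytoplasm and the cytochromes P450 Cyp26a1 and Cyp26b1 break down. In the rodent yolk sac the visceral endoderm is known as a source of Rbp4 and Ttr before the liver takes over, and retinoic acid made in the yolk sac is known to matter for its vessels. Cyp26a1 is itself a classic target of retinoic acid, through response elements that its receptors bind as a direct repeat of a short half-site with a fixed spacing.

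Of the 9 members, 6 were matched by symbol in RefSeq's promoter windows (GRCm38.p6), with 10 windows between them. The 250 bases upstream of the start site are shown for the pair of Cyp26 genes because both enzymes degrade retinoic acid, while their levels moved in opposite directions with stage in the wild type. The windows are chr19:37697558-37697807 on the plus strand for Cyp26a1 and chr6:84593811-84594060 on the minus strand for Cyp26b1, each ending at the base before the annotated start and printed along the gene's strand. Capitals mark the match to a direct repeat of the half-site AGNTCA with 5 bases between, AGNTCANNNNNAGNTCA, searched on both strands.
Cyp26a1: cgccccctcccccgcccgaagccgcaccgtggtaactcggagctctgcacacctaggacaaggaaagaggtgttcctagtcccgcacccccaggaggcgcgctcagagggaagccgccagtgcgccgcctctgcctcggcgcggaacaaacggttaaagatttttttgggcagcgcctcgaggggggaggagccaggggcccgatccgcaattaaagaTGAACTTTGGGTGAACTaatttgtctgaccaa
Cyp26b1: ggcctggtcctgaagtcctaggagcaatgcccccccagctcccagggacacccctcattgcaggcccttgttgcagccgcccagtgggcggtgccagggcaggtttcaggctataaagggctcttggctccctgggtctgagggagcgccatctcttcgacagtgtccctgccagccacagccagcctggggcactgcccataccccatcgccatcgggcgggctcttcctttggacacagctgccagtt

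The Cyp26a1 match reads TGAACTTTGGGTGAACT along the gene and begins at position -32 from the start, so the repeat itself lies on the opposite strand. The same spaced repeat occurred in 65 of 32851 promoter windows of this length, 0.198% of them. Its 2 half-sites count again in a search for AGNTCA alone, which matched 41.3% of all windows. No window of Cyp26b1, Rbp4, Aldh1a2 or Crabp1 matched AGNTCA or its repeat with 1, 2 or 5 bases between (AGNTCANAGNTCA, AGNTCANNAGNTCA or the form above). Nor did any match the GATA motif AGATAA, which matched 9.99% of all windows. Only this form of the half-site was searched, so a window without a match may hold other forms. Of the 4 Stra6 windows, 1 held a half-site and a GATA motif. A match describes letters in this window and no measurement here bears on binding.

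The arrays lay on 3 slides, which coincided with the replicate numbers and each held 1 array of every group at a fixed position, so group and position cannot be told apart. Between 46.7% and 50.1% of probes had a Cy5 signal well above background on each array. The visceral endoderm markers Afp, Apoa1, Cubn, Amn and Hnf4a and the mesoderm marker Col1a1 were above background on all 12 arrays. So were the endothelial marker Kdr, the embryonic globin Hbb-bh1, Myl7 of the heart, Tcf15 of the somites and the placental hormones Prl3d1 and Prl4a1. Meox1 of the somites and Sox2 and Pax6 of the neural tube were each above background on 1 array. Of the listed markers on the array, 14 of 17 heart, 7 of 20 neural and 3 of 14 somite markers were bright enough to test. One wild-type E8.5 array, replicate 2, was the highest of the 12 for markers of the embryo proper. Its mean centred log2 ratio was 0.41 over 7 neural markers, against -0.10 to 0.03 on the other 11 arrays, and 0.58 over 14 heart markers, against -0.18 to 0.07. Replicate 3 of the E8.5 mutant, the E9.5 wild type and the E9.5 mutant carried high placental Prl4a1 (5.70, 4.31 and 3.74). On the other 9 arrays Prl4a1 was at 0.26 to 1.53. Xist was low on 3 arrays (-4.17 to -4.01, against -1.98 to -0.52). Low Xist was found at E9.5 in wild-type replicate 2 (-4.02). At E8.5 it was found in the mutant, in replicate 2 (-4.01) and replicate 3 (-4.17). No E8.5 wild-type array was low in Xist (-1.37, -0.67 and -1.03). Genotype and Xist level therefore cannot be fully told apart at E8.5. The Arid1a probe reports the transcript and not the allele: its log2 ratio was -0.12 to 0.07 on all 6 E8.5 arrays, -0.38 to -0.32 in the E9.5 wild type and -0.27 to -0.13 in the E9.5 mutant.

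**Figure D1:**
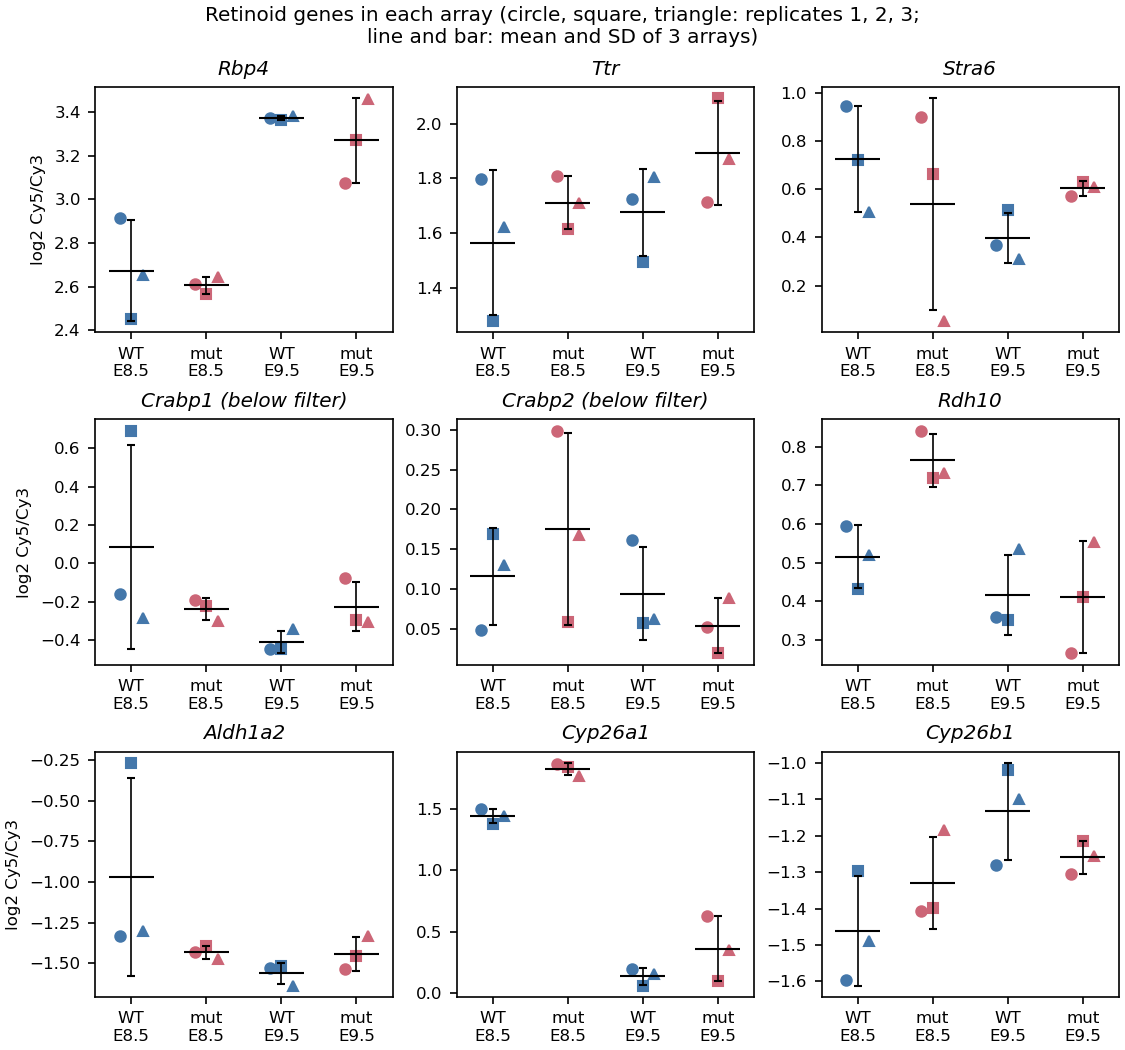
Each panel plots log2 Cy5/Cy3 (vertical axis, own scale per gene) of 1 retinoid gene on the 12 arrays, by genotype and stage; symbols are replicates 1, 2 and 3, and the line and bar are the mean and SD of 3 arrays. Rbp4 stands higher and Cyp26a1 lower on all 6 E9.5 arrays than on any E8.5 array, and a single wild-type E8.5 array stands apart for Aldh1a2 and Crabp1.

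From E8.5 to E9.5 the largest movement among the tested members was a fall of Cyp26a1, which breaks down retinoic acid, beside a higher ratio of Rbp4, which carries retinol. Both were seen in wild type and mutant, but the larger part of the Rbp4 difference lay in the Cy3 reference channel, as given below. By limma with Benjamini-Hochberg adjustment over all genes tested, 4 of 7 members changed with stage in the wild type, where 23.8% of all genes did. In the mutant 3 of 7 did, where 21.6% of all genes did. The members' median difference was -0.10 for the wild type and 0.07 for the mutant, on the log2 scale, against medians of -0.01 and -0.01 over all genes tested. No test compares the members as a group with the other genes.

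Rbp4, the retinol carrier of plasma, had log2 ratios of 2.91, 2.45 and 2.65 in the E8.5 wild type and of 3.37, 3.36 and 3.38 in the E9.5 wild type. In the mutant it was at 2.61, 2.56 and 2.64 at E8.5 and at 3.07, 3.27 and 3.46 at E9.5. Every E9.5 array lay above every E8.5 array. Rbp4 rose by 0.70 ± 0.10 (SE, n = 3 arrays per group), or 1.62-fold, in the wild type (limma, adjusted p = 0.00029) and by 0.66 ± 0.10, or 1.58-fold, in the mutant (limma, adjusted p = 0.000459). Read apart and before background removal, the mean Cy5 signal of Rbp4 went from 35079 to 42525 units in the wild type and from 34212 to 41398 in the mutant, a log2 change of 0.28 in both, without saturation. The Cy3 signal, from the same reference RNA on every array, went from 3907 to 2504 units in the wild type and from 4461 to 2767 in the mutant, log2 changes of -0.64 and -0.69. The median Cy3 change over kept probes brighter than 1000 units in Cy3 was -0.07 and -0.22. The larger part of the Rbp4 ratio difference thus lay in the reference channel, so its size is not a measure of yolk sac RNA alone, and the cause was not tested. Markers of both layers of the yolk sac moved alongside, where 23.8% (wild type) and 21.6% (mutant) of all genes changed. Of 27 visceral endoderm markers tested, 12 rose and 2 fell in the wild type and 11 rose and 3 fell in the mutant, with mean centred log2 ratios of -0.24 to -0.11 on E8.5 arrays and 0.04 to 0.23 on E9.5 arrays. Of 20 mesoderm and mesothelium markers, 10 rose and none fell in the wild type and 9 rose and 2 fell in the mutant, with means of -0.39 to -0.09 and 0.15 to 0.33. The part of either in the Rbp4 result was not tested, and in whole yolk sac a change in the number of cells of a type cannot be told apart from a change in RNA per cell.

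Ttr, which carries thyroid hormone as well as the Rbp4 complex, did not pass the test with stage. Its log2 ratios were 1.80, 1.28 and 1.62 in the E8.5 wild type and 1.73, 1.50 and 1.81 in the E9.5 wild type. In the mutant they were 1.81, 1.62 and 1.71 at E8.5 and 1.71, 2.09 and 1.87 at E9.5. The stages overlapped in both genotypes. The difference was 0.11 (95% interval -0.15 to 0.38, limma, adjusted p = 0.563) in the wild type and 0.18 (-0.08 to 0.45, adjusted p = 0.344) in the mutant.

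Stra6, the receptor that takes up retinol from Rbp4, was spread widely within groups. Its log2 ratios were 0.95, 0.72 and 0.51 in the E8.5 wild type and 0.37, 0.52 and 0.31 in the E9.5 wild type. In the mutant they were 0.90, 0.66 and 0.05 at E8.5 and 0.57, 0.63 and 0.61 at E9.5. The lowest value of all 12 belongs to mutant E8.5 replicate 3, one of the arrays high in Prl4a1. The stage difference did not pass the test in the wild type (-0.33 ± 0.16, limma, adjusted p = 0.16) or in the mutant (0.07 ± 0.16, adjusted p = 0.825). Without mutant E8.5 replicate 3, which narrows the spread shared by all groups, the wild-type difference had an adjusted p of 0.0305 (limma) and the mutant difference turned to -0.18.

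Rdh10, which makes retinaldehyde from retinol, had log2 ratios of 0.84, 0.72 and 0.73 in the E8.5 mutant and of 0.27, 0.41 and 0.55 in the E9.5 mutant, with no overlap. In the wild type it was at 0.59, 0.43 and 0.52 at E8.5 and at 0.36, 0.35 and 0.54 at E9.5, which overlap. In the mutant it fell by 0.35 on the log2 scale, with an SE of 0.08, or 1.28-fold (limma, adjusted p = 0.00492). The wild-type difference of -0.10 ± 0.08 did not pass (limma, adjusted p = 0.392). The second Rdh10 probe, fitted among all probes, gave -0.33 ± 0.07 in the mutant (limma, adjusted p = 0.00355) and -0.16 ± 0.07 in the wild type (adjusted p = 0.11). The mutant fall missed the threshold when arrays were median-centred (-0.23, limma, adjusted p = 0.137) and was larger on the scanner's processed signals (-0.69). Whether the stage change differs between genotypes is the interaction, -0.25 ± 0.11, which did not pass (limma, adjusted p = 0.849).

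Aldh1a2, the main enzyme of retinoic acid synthesis in the early embryo, was far below the neonatal reference in every group. Its log2 ratios were -1.33, -0.27 and -1.30 in the E8.5 wild type and -1.53, -1.51 and -1.64 in the E9.5 wild type. In the mutant they were -1.43, -1.39 and -1.47 at E8.5 and -1.54, -1.46 and -1.33 at E9.5. The 11 arrays other than wild-type E8.5 replicate 2 lie between -1.64 and -1.30, and that array lies about 1 unit above them. The wild-type stage difference of -0.59 ± 0.20 passed the test narrowly (limma, adjusted p = 0.0404), and the processed signals gave -1.51 (adjusted p = 0.0449). Without wild-type E8.5 replicate 2 it was -0.24 ± 0.07 (limma, adjusted p = 0.0221), and it missed the threshold in 8 of the 12 fits that left out 1 array. Aldh1a2 was dim: its Cy5 before background removal was 128 units on that array and 49.8 to 62.8 on the other 11. The median Cy5 background of an array was 35 to 37 units, so the difference without that array rests on signals not far above it. In the mutant the difference was -0.01 ± 0.20 (limma, adjusted p = 0.98).

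The array that was high for Aldh1a2 was the one high for markers of the embryo proper. The 2 genes whose log2 ratios followed Aldh1a2 most closely over the 12 arrays were Hes5 and Sall3 (Pearson r = 0.97 and 0.96, a description that rests on this array). Hes5, a Notch target of neural progenitors and itself on the neural list, was at 0.06 there and at -1.55 to -1.41 on the other 11 arrays. The atrial myosin light chain Myl7 was at 0.01 there, at -1.47 on wild-type E8.5 replicate 3 and at -3.14 to -2.50 on the rest. Wild-type E8.5 replicate 3 also had the next highest mean of the heart markers (0.07). The part of embryonic tissue in the Aldh1a2 value was not tested beyond leaving the array out.

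Crabp1, a cytoplasmic binder of retinoic acid found in neural crest and hindbrain, stood out on the same array. Its log2 ratio was -0.16, 0.69 and -0.28 in the E8.5 wild type, -0.19, -0.22 and -0.30 in the E8.5 mutant, -0.44, -0.44 and -0.34 in the E9.5 wild type and -0.08, -0.29 and -0.30 in the E9.5 mutant. The Cy5 signal was well above background on only 4 arrays, wild-type E8.5 replicate 2, mutant E8.5 replicates 1 and 2 and mutant E9.5 replicate 1. On the first it was 99.8 units before background removal, and on the other 11 arrays it was 39.0 to 54.1 units. Crabp1 was therefore not tested, and only the wild-type E8.5 value of replicate 2 lies clear of the rest.

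Crabp2, which hands retinoic acid to its nuclear receptors, was at 38.0 to 48.9 units of Cy5 on all 12 arrays. It was well above background on 3 of them, wild-type E8.5 replicate 2 and mutant E8.5 replicates 1 and 3, and the Cy3 reference was not above background on any. Its log2 ratios, between 0.02 and 0.30, carry no measured level and no fold is given.

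**Figure D2:**
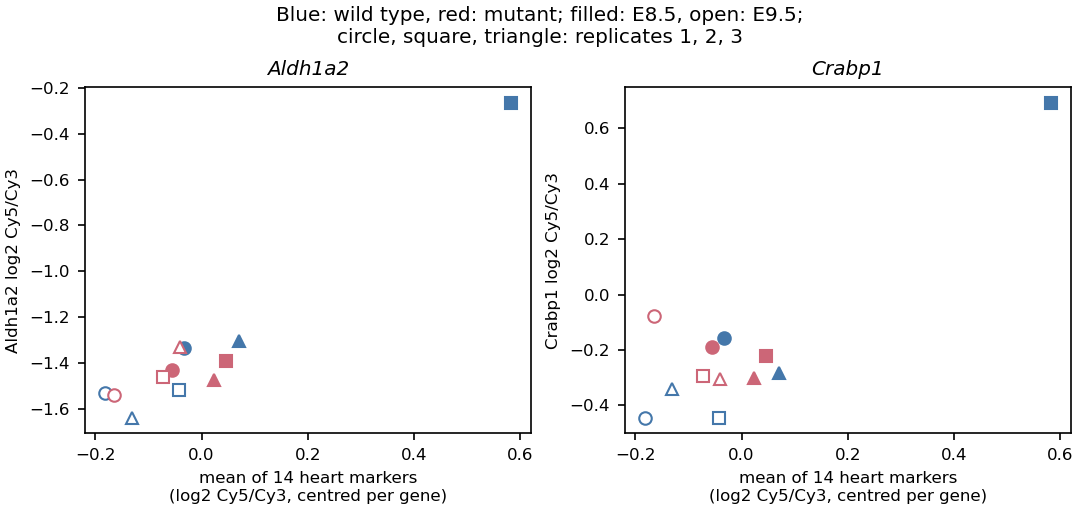
Log2 Cy5/Cy3 of Aldh1a2 and Crabp1 (vertical axes) against the mean of 14 heart markers of the embryo (horizontal axis, log2 Cy5/Cy3 centred per gene), 1 point per array. Wild-type E8.5 replicate 2, with a heart marker mean of 0.58, is the top right point of both panels, and the other 11 arrays form 1 group.

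Cyp26a1 had the largest stage difference of the 7 tested members in both genotypes. Its log2 ratios were 1.50, 1.38 and 1.44 in the E8.5 wild type and 0.20, 0.06 and 0.15 in the E9.5 wild type. In the mutant they were 1.87, 1.84 and 1.77 at E8.5 and 0.63, 0.10 and 0.35 at E9.5. In this setting all 6 E8.5 arrays were above the neonatal reference by more than 1 unit, and no E9.5 array was. With processed signals mutant E9.5 replicates 1 and 3 also were (1.98 and 1.37), and the E8.5 arrays were at 3.22 to 3.72. Cyp26a1 fell by 1.31 on the log2 scale, with an SE of 0.10, or 2.47-fold, in the wild type (limma, adjusted p = 9.13e-07), and the mutant difference was -1.47 ± 0.10, or 2.77-fold (limma, adjusted p = 3.42e-07). Among all 13894 genes tested it ranked 30 by p for the wild type and 17 for the mutant. These folds depend on how much constant is added to dim signals: Cy5 was only 49.9 to 253 units before background removal, and the processed signals gave differences of -2.69 for the wild type and -2.34 for the mutant, both still called by limma (adjusted p = 0.000191 and 0.000452). With a smaller normexp offset of 10 they were -1.95 and -1.97. In Cyp26a1 the change lay in the yolk sac channel: mean Cy5 went from 165 to 54.2 units in the wild type and from 217 to 73.3 in the mutant, and mean Cy3 from 57.2 to 52.5 and from 60.5 to 55.4. Leaving out any 1 array kept the differences between -1.34 and -1.27 in the wild type and between -1.60 and -1.34 in the mutant.

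Cyp26b1, the other tested member that degrades retinoic acid, was below the reference on all 12 arrays. Its log2 ratios were -1.60, -1.30 and -1.49 in the E8.5 wild type and -1.28, -1.02 and -1.10 in the E9.5 wild type, with no overlap. In the mutant they were -1.41, -1.40 and -1.19 at E8.5 and -1.31, -1.22 and -1.26 at E9.5, which overlap. It rose by 0.33 ± 0.09, or 1.25-fold, in the wild type (limma, adjusted p = 0.0135), and the processed signals gave 1.00. Its mean Cy5 went from 53.3 to 76.0 units there and its mean Cy3 from 199 to 187. Without wild-type E8.5 replicate 1 the rise was 0.26 (limma, adjusted p = 0.0602), without wild-type E9.5 replicate 2 it was 0.27 (adjusted p = 0.0585), and with Xist as a covariate it was 0.29 (adjusted p = 0.0737). In the mutant the difference was 0.07 ± 0.09 (limma, adjusted p = 0.624), and the interaction of -0.26 ± 0.12 did not pass (adjusted p = 0.853).

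**Figure D3:**
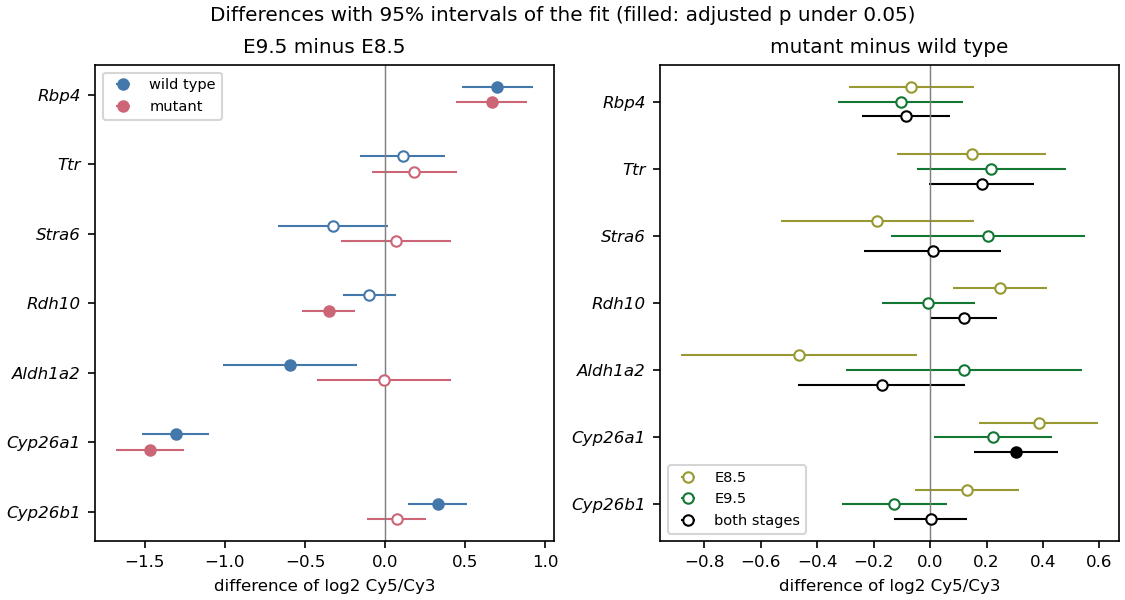
Differences of log2 Cy5/Cy3 (horizontal axes) for the 7 tested members with the 95% intervals of the fit, E9.5 minus E8.5 in each genotype on the left and mutant minus wild type at each stage and averaged over both on the right. Filled points have an adjusted p under 0.05; on the left Cyp26a1 and Rbp4 are filled in both genotypes, and on the right only the average for Cyp26a1 is.

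Scaling matters for small stage differences. When each array was centred on its median instead of normalized by loess, the median of all genes tested moved to 0.11 in the wild type and to 0.14 in the mutant, and 94.7% and 95.6% of calls were higher at E9.5, against 53.9% and 50.8% with loess. Relative to those medians the Cyp26a1 differences of -1.25 and -1.34 and the Rbp4 difference of 0.90 in the wild type remained far outside, and all kept their direction and call.

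Between genotypes, no member passed the test at either stage alone, and Cyp26a1 passed it once both stages were averaged. At E8.5 limma called 0 of 7 members and 1.44% of all genes, and 3 members (Cyp26a1, Rdh10 and Aldh1a2) and 12.4% of all genes had an unadjusted p under 0.05. At E9.5 it called 0 of 7 members and 1.99% of all genes, with Cyp26a1 alone among members, and 12% of all genes, at an unadjusted p under 0.05. Averaged over stages it called 1 of 7 members and 4.69% of all genes, and 2.35% of all genes were called higher in the mutant. There 2 members, Cyp26a1 and Rdh10, and 17% of all genes had an unadjusted p under 0.05. The members' median difference was 0.13 at E8.5, 0.12 at E9.5 and 0.01 on average, against 0.00 over all genes tested in each.

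All 3 mutant values of Cyp26a1 at E8.5 (1.77 to 1.87) lay above all 3 wild-type values (1.38 to 1.50). The difference of 0.38 ± 0.10, or 1.31-fold, missed the threshold (limma, adjusted p = 0.0746). With the slide, which is also the replicate number, as a replicate block the adjusted p was 0.0243 (limma). With only the 6 arrays of E8.5 in the fit it was 0.0198, at the same difference. The difference was not called with median centring (0.30, limma, adjusted p = 0.53) or processed signals (0.37, adjusted p = 0.616). Nor was it called with an offset of 10 (0.41, limma, adjusted p = 0.332) or Xist as a covariate (0.36, adjusted p = 0.492). No call came from the deposited table (0.37, limma, adjusted p = 0.607) or without the arrays high in Prl4a1 (0.41, adjusted p = 0.245). Within the slides the difference was 0.37, 0.46 and 0.32. At E9.5 the groups overlapped (0.06 to 0.20 against 0.10 to 0.63), and the difference of 0.22 ± 0.10 did not pass (limma, adjusted p = 0.373), with within-slide values of 0.43, 0.04 and 0.20.

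Averaged over stages Cyp26a1 was 0.30 ± 0.07 higher in the mutant, or 1.24-fold (limma, adjusted p = 0.0202), and the mutant was above the wild type on each of the 3 slides at both stages. That call was lost with median centring (0.26, limma, adjusted p = 0.279), processed signals (0.54, adjusted p = 0.161), an offset of 10 (0.40, adjusted p = 0.0886), the authors' deposited table (0.54, adjusted p = 0.152) and without the 3 arrays high in Prl4a1 (0.33, adjusted p = 0.11). It was also lost without mutant E8.5 replicate 1 (0.29, limma, adjusted p = 0.0505) or wild-type E9.5 replicate 2 (0.29, adjusted p = 0.055). The direction was the same in all of these. The stage dependence of the Cyp26a1 difference, -0.16 ± 0.14, did not pass (limma, adjusted p = 0.949) and had no settled direction, at 0.35 with processed signals and with the deposited table.

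**Figure D4:**
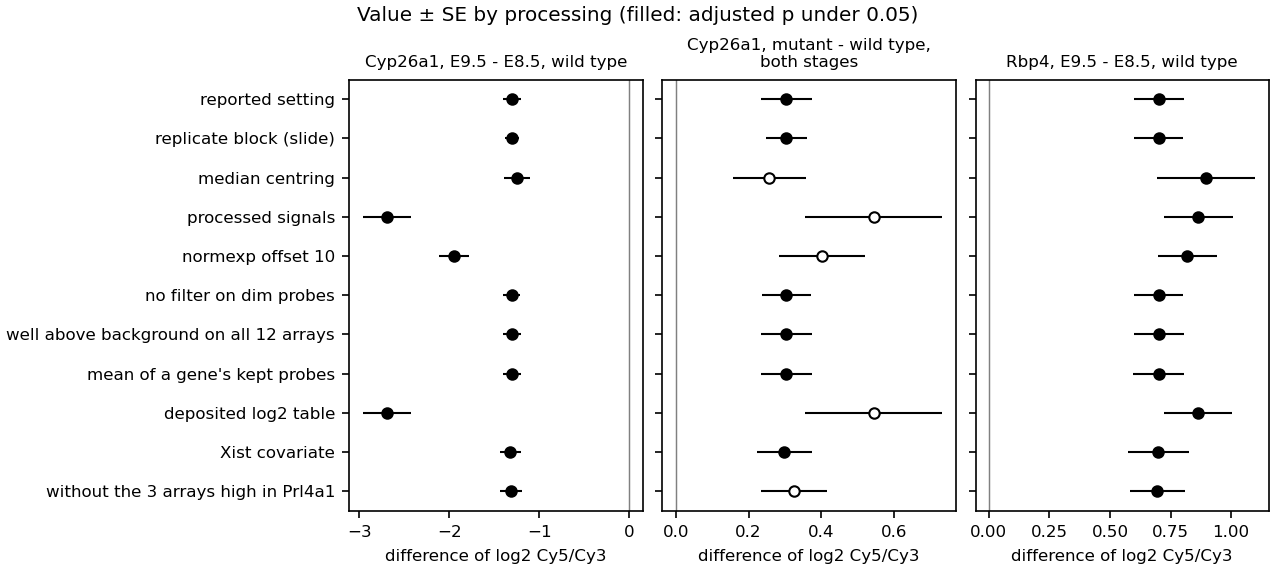
Differences of log2 Cy5/Cy3 (horizontal axes, value ± SE) under 11 settings for Cyp26a1 and Rbp4, with filled points at an adjusted p under 0.05. The stage differences are filled under every setting, while the Cyp26a1 difference between genotypes, 0.26 to 0.54, is open under 5.

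The other members gave no called difference between genotypes. Rdh10 was higher in all 3 E8.5 mutants (0.72 to 0.84) than in any E8.5 wild type (0.43 to 0.59), by 0.25 ± 0.08 (limma, adjusted p = 0.156), and its second probe gave 0.20 ± 0.07. At E9.5 the Rdh10 difference was -0.01 (95% interval -0.17 to 0.16). Stra6 did not overlap between genotypes at E9.5 (0.31 to 0.52 in the wild type, 0.57 to 0.63 in the mutant), at 0.21 ± 0.16 (limma, adjusted p = 0.711). At E8.5 the Stra6 difference was -0.19 ± 0.16 (limma, adjusted p = 0.705), negative on all 3 slides, and 0.06 without mutant E8.5 replicate 3.

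For Aldh1a2 the E8.5 difference of -0.46 ± 0.20 (limma, adjusted p = 0.337) was -0.11 ± 0.07 without wild-type E8.5 replicate 2 and -1.26 with processed signals. At E9.5 it was 0.12 ± 0.20. Rbp4 differed by -0.07 (95% interval -0.29 to 0.15) at E8.5 and by -0.10 (-0.32 to 0.12) at E9.5. Ttr differed by 0.15 (-0.12 to 0.41) and 0.22 (-0.05 to 0.48), and Cyp26b1 by 0.13 (-0.05 to 0.32) and -0.13 (-0.31 to 0.06). These intervals do not show that the genotypes are alike. Both Ttr intervals hold a difference as large as that of Cyp26a1 at E8.5 (0.38), while those of Rbp4 and Cyp26b1 stop short of it. That bound holds for this setting only. At E8.5 the Cyp26b1 difference was 0.64 ± 0.21 with processed signals and 0.04 ± 0.09 with median centring. The Rbp4 difference was -0.03 ± 0.14 with processed signals and -0.22 ± 0.20 with median centring. None of these was called. The interaction of genotype and stage was called by limma for 0 of 7 members and for 0% of all genes, with 1 member, Rdh10, and 795 genes (5.72%) at an unadjusted p under 0.05.

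Other genes of the pathway were read from 3 lists. Of 43 further carriers and enzymes of retinoids, 28 were tested: 10 rose and 1 fell with stage in the wild type, and 8 rose and none fell in the mutant, against 23.8% and 21.6% of all genes called in either direction. Their median stage difference was 0.08 for the wild type and 0.07 for the mutant, against -0.01 over all genes tested in both.

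Between genotypes 1 of the 28 tested genes of this list was called, at E9.5 and averaged over stages. Of all genes, 1.99% were called at E9.5 and 4.69% on average. Akr1b8, an aldo-keto reductase that can reduce retinaldehyde, was at 0.08, 0.04 and 0.03 in the E9.5 wild type and at 0.50, 0.63 and 0.93 in the E9.5 mutant. It rose by 0.63 ± 0.09 in the mutant at E9.5 (limma, adjusted p = 0.0015) and by 0.46 ± 0.06 averaged over stages (adjusted p = 6e-04). Both Akr1b8 calls were lost with median centring (0.60 and 0.39, limma, adjusted p = 0.177 and 0.101).

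Among the other enzymes, the P450 Cyp2s1 rose with stage by 0.74 ± 0.09 in the wild type and by 1.19 ± 0.09 in the mutant, without a called interaction (0.45 ± 0.13, limma, adjusted p = 0.52). Rdh11 and Dhrs3, which reduce retinaldehyde back to retinol, rose by 0.48 and 0.41 in the wild type and by 0.54 and 0.44 in the mutant. The retinol saturase Retsat rose by 0.34 and 0.41, and the alcohol dehydrogenase Adh1 by 0.39 and 0.38. With the mean of its probes the Adh1 differences were not called (0.19 and 0.28, limma, adjusted p = 0.284 and 0.123). Bco1, which cleaves carotene to retinaldehyde, rose by 0.35 in the wild type (limma, adjusted p = 0.0342), a call lost with median centring (0.46, adjusted p = 0.0727), with processed signals (0.67, adjusted p = 0.139) and in 3 of the 12 fits that left out 1 array, and its mutant difference of 0.20 did not pass (adjusted p = 0.249). Without wild-type E8.5 replicate 2 the Bco1 difference in the wild type was 0.23 (limma, adjusted p = 0.137). Aldose reductase Akr1b3 was the one gene of this list that fell, by 0.27 in the wild type, and with median centring it was at -0.08 and not called (limma, adjusted p = 0.776).

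Of 18 receptors and cofactors 13 were tested. The nuclear receptor Rxra, partner of the retinoic acid receptors, rose with stage by 0.43 ± 0.08 in the wild type and by 0.37 ± 0.08 in the mutant (limma, adjusted p = 0.00125 and 0.00357). The Polycomb methyltransferase Ezh2 fell by 0.40 and 0.27 and the coactivator Ncoa3 fell by 0.33 and 0.38. With the mean of its probes the wild-type Ncoa3 fall was not called (-0.14, limma, adjusted p = 0.0645). The mutant Ezh2 fall was not called without the arrays high in Prl4a1 (-0.31, limma, adjusted p = 0.0599). Nr2c1 fell by 0.16 in the mutant (limma, adjusted p = 0.0444), a call lost in 9 of the 12 fits that left out 1 array, with processed signals (-0.47, adjusted p = 0.0784) and with Xist as a covariate (-0.16, adjusted p = 0.23). With median centring none of these falls was called: Ezh2 was at -0.27 and -0.09, Ncoa3 at -0.19 and -0.20, and Nr2c1 at -0.08. No receptor or cofactor was called between genotypes by limma at either stage or on average. Of all genes, 1.44% were called at E8.5, 1.99% at E9.5 and 4.69% on average.

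The list of genes known to be induced by retinoic acid had 22 of 30 tested, and it shares Dhrs3 with the enzymes above. With stage 3 rose (Dhrs3, Tshz1 and Tgm2) and none fell in the wild type, and 2 rose (Dhrs3 and Foxa1) and none fell in the mutant. These are smaller shares than the 23.8% and 21.6% of all genes called. The list's mean centred log2 ratio was highest on wild-type E8.5 replicate 2 (0.155), the array high for markers of the embryo proper. On every other array it was between -0.07 and 0.05. The part of that array in the small wild-type share was not tested. The Tshz1 rise of 0.30 was lost with the mean of its probes (0.18, limma, adjusted p = 0.0546), with Xist as a covariate (0.22, adjusted p = 0.165) and in 4 of the 12 fits that left out 1 array, down to 0.20 without wild-type E9.5 replicate 2. Tgm2 and Foxa1 are named only to complete these small counts. Averaged over stages, 1 of the 22 was called higher and 1 lower in the mutant, where 4.69% of all genes were called. Rarres1 rose by 0.19 and Tshz1 fell by 0.24 in the mutant (limma, adjusted p = 0.0498 for each). Each of these calls was lost in 10 of the 12 fits that left out 1 array. The list's median stage difference was 0.02 in both genotypes, against -0.01 over all genes tested.

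**Figure D5:**
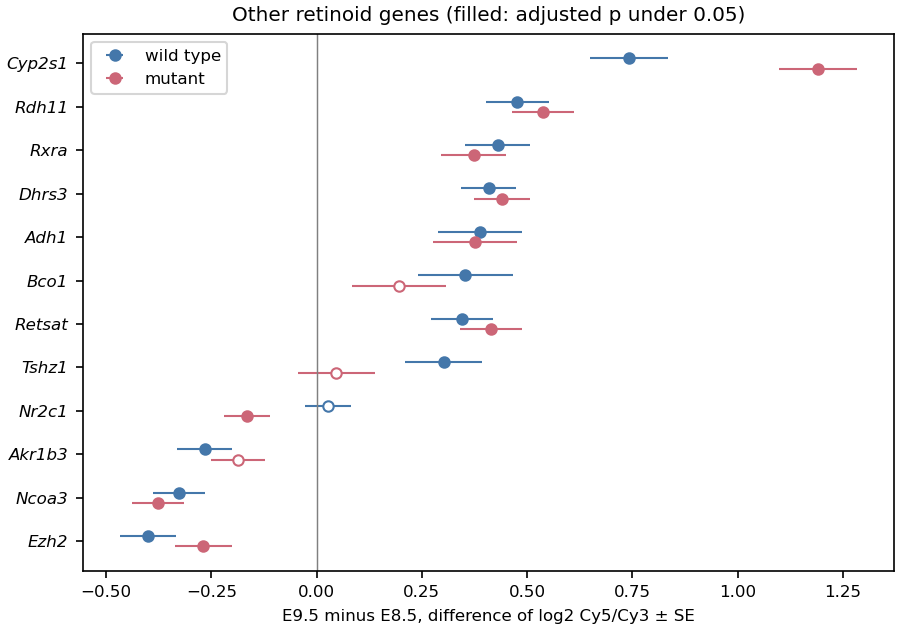
E9.5 minus E8.5 differences of log2 Cy5/Cy3 ± SE (horizontal axis) for the 12 named genes of the 3 retinoid lists called in at least 1 genotype, wild type in blue and mutant in red, filled where the adjusted p is under 0.05. Cyp2s1, at 0.74 and 1.19, lies farthest right.

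Over the 12 arrays, some pairs of tested members ran opposite or alike and others showed little relation. Pearson correlation of log2 ratios, given as a description across 12 arrays that share a reference and 4 groups, was -0.93 between Cyp26a1 and Rbp4 and 0.74 between Cyp26a1 and Rdh10, while it was 0.02 between Ttr and Stra6 and -0.04 between Ttr and Cyp26b1. The genes most like Cyp26a1 over the arrays were Mapre1 and Hspa4 (r = 0.98 for both), and those most like Rbp4 were Acaa1a and P2rx4 (0.99 and 0.98). Rtn3 and Lasp1 were nearest to Rdh10 (0.97 and 0.94), Lman1 and Xlr4b to Ttr (0.95 and 0.89), Adamts12 and Dnmt3a to Cyp26b1 (0.91 and 0.87), and Zfp748 and Ap4e1 to Stra6 (0.86 and 0.83).

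The levels of the 4 groups order differently for each member. For Cyp26a1 the E8.5 mutant was highest (1.83 ± 0.05, SD, n = 3), then the E8.5 wild type (1.44 ± 0.06), the E9.5 mutant (0.36 ± 0.26) and the E9.5 wild type (0.13 ± 0.07), and only the last pair overlapped. For Rbp4 the E9.5 wild type (3.37 ± 0.01) and E9.5 mutant (3.27 ± 0.19) led the E8.5 wild type (2.67 ± 0.23) and E8.5 mutant (2.61 ± 0.04), and the genotypes overlapped at each stage. For Cyp26b1 the order was E9.5 wild type (-1.13 ± 0.13), E9.5 mutant (-1.26 ± 0.05), E8.5 mutant (-1.33 ± 0.13) and E8.5 wild type (-1.46 ± 0.15), with every neighbouring pair overlapping.

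For Rdh10 the E8.5 mutant (0.76 ± 0.07) stood above the E8.5 wild type (0.52 ± 0.08), the E9.5 wild type (0.42 ± 0.10) and the E9.5 mutant (0.41 ± 0.14), and the lower 3 groups overlapped. For Ttr the order was E9.5 mutant (1.89 ± 0.19), E8.5 mutant (1.71 ± 0.10), E9.5 wild type (1.68 ± 0.16) and E8.5 wild type (1.56 ± 0.26), and for Stra6 it was E8.5 wild type (0.73 ± 0.22), E9.5 mutant (0.60 ± 0.03), E8.5 mutant (0.54 ± 0.44) and E9.5 wild type (0.40 ± 0.11). Neighbouring groups overlapped throughout these orders. For Aldh1a2 the order was E8.5 wild type (-0.97 ± 0.61), E8.5 mutant (-1.43 ± 0.04), E9.5 mutant (-1.44 ± 0.11) and E9.5 wild type (-1.56 ± 0.07), where the last 3 groups overlapped as neighbours and the first did not overlap with the second.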

How the data were processed

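The 9 genes and the lists of other genes were chosen with earlier results of these data known. Per the labels, RNA was extracted with TRIzol and RNeasy columns, and 500 ng was amplified, with no dye swap. The deposited per-array files hold, per the file headers, mean and background intensity from Agilent Feature Extraction 9.5.1.1, a log10 ratio of processed signals, and flag columns whose values are 0 or 1. The authors' deposited table holds log2 ratios centred per probe on the median of the arrays (19007 transcript probes; how these were filtered: not given in the sources used here), and Crabp1 and Crabp2 are not among its probes.

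In R 4.3.3 with limma 3.58.1, background was removed by normexp (offset 50) and ratios were normalized by loess, with control spots at weight 0. Probes were kept whose Cy5 passed the well-above-background flag throughout at least 1 group, and the brightest kept probe stood for its gene. Spots over 20 units below background were set to missing, a rule set after the fit failed on 1 array. Limma fitted 4 group means to the 12 arrays, with Benjamini-Hochberg adjustment over 13894 genes and calls at an adjusted p under 0.05. All members were named, and of the 3 lists of other retinoid genes up to 6 called genes in each direction, plus for each member the 2 genes of highest correlation. Some genes of these lists are not reported here and were left out of their counts. The script was tested on simulated data. Lists of endothelial, erythroid, decidual and trophoblast markers were also read for each array. The number of arrays limits the precision: the median standard error of a difference was 0.07. Alternatives were the slide as a replicate block, median centring, processed signals, an offset of 10, 2 other filters, the mean of a gene's probes, the deposited table, Xist as covariate, and fits on fewer arrays. Replicate numbers coincide with slides per the file headers. Deviations of the 18 same-numbered pairs correlated by -0.01 to 0.42 (median 0.23), 16 of them over 0.1, against a median of -0.10 for other pairs.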

Additional observations from a re-analysis of the deposited data

How the results depend on the processing

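The members' calls were least secure between genotypes. No member's called difference changed sign under any alternative run. With the slide as a replicate block, 1 member was called at E8.5 and 1 gene had a called interaction, and with only the arrays compared 1 member and 123 genes were called at E8.5. Averaged over stages, 0 members were called with median centring, processed signals, an offset of 10, the deposited table or without the 3 arrays high in Prl4a1. With Xist as a covariate 2 members were called with stage in the wild type. Genes called with median centring numbered 10 at E8.5 (2 higher, 8 lower in the mutant), 26 at E9.5 (5 and 21), 158 on average (23 and 135), 1458 with stage for the wild type and 1757 for the mutant, against 200 (99 and 101), 277 (127 and 150), 651 (327 and 324), 3308 and 2997 with loess. With Xist as a covariate they were 24 at E8.5, 134 at E9.5 and 1393 with stage in the mutant. Without the 3 arrays high in Prl4a1 they were 86, 124 and 1346, with 322 on average and 2 for the interaction. At E9.5 the count was 173 with processed signals and 181 with the deposited log2 values. The cause was not tested, apart from the fewer arrays where arrays were left out. Leaving out 1 array gave 93 to 222 genes at E8.5, 145 to 369 at E9.5, 0 to 5 for the interaction, 2292 to 3315 with stage in the wild type, 2129 to 3367 in the mutant and 444 to 687 on average, and 0 to 1, 0 to 0, 0 to 0, 2 to 4, 3 to 3 and 0 to 1 members. Dim signals limit Crabp1, Crabp2 and the size of the differences of Cyp26a1, Cyp26b1, Aldh1a2 and Rdh10. The called stage differences of these last genes were larger with processed signals, as given above.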

Other observations

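The markers of the embryonic erythroid lineage, not described above, were read on the same arrays as the retinoid genes. Their mean centred log2 ratio over 12 genes was highest in mutant E8.5 replicates 2 and 3 (0.38 and 0.32) and mutant E9.5 replicate 1 (0.21), and -0.24 to 0.00 on the other 9 arrays. With stage 5 of the 12 were called lower for each genotype: Gata1, Klf1, Tal1, Nfe2 and Epor. Only Hbb-y was called higher, for the wild type. Of all genes, 23.8% (wild type) and 21.6% (mutant) were called with stage. The list's median stage difference was 0.06 for the wild type, where 7 of the 12 lay above 0. For the mutant it was -0.14, where 2 of the 12 lay above 0. Decidual markers (8 tested) ranged from -0.41 in mutant E8.5 replicate 1 to 0.35 in mutant E9.5 replicate 2, endothelial markers (14 tested) from -0.10 to 0.10, and trophoblast markers (8 tested) were at 1.19, 0.92 and 1.00 on the 3 arrays high in Prl4a1 and at -0.49 to -0.16 on the other 9.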
